A study of Mus musculus with 4 samples.

Results

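The proteasome is the protease complex that degrades ubiquitin-tagged proteins, and its subunit genes were followed here through nuclei of neonatal mouse hearts with and without a deletion of Nrf1 (gene symbol Nfe2l1), a transcription factor known as an activator of these genes. The members are all genes whose symbol starts with Psma, Psmb, Psmc or Psmd followed by a number, which is 39 of the 22574 genes in the deposited count matrix. They were grouped by that letter and, within the letter, by the known place of the subunit in the complex. Of the 39 members, 38 were detected.

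Single-nucleus RNA sequencing was made in 4 libraries, 1 for each combination of genotype and surgery, with a 10x Genomics 3′ kit that counts RNA molecules by unique molecular identifiers (UMIs). All mice carried loxP-flanked Nrf1 alleles (Nrf1fl/fl) in the C57BL/6 background. Those called KO also carried aMHC-Cre, a recombinase driven by the cardiac alpha myosin heavy chain promoter, so that the deletion was aimed at cardiomyocytes, and those called WT lacked the Cre. Infarction (MI, by tying off the left coronary artery below its origin) or a Sham operation was done at postnatal day 3, the heart tissue below the level of the ligature was taken 1 day later per the methods, and each library held pooled tissue of 4 to 6 hearts. The 4 groups are therefore WT-Sham, KO-Sham, WT-MI and KO-MI, each with 1 library and no replicate. The strain tag of the labels runs from C57BL/6 to C57BL/9 across the 4 libraries, while the protocol in the same labels gives C57BL/6 for all. The cell type tag says only purified nuclei from heart, and the deposited nuclei are those kept as cardiomyocytes. All 8 cardiomyocyte marker genes examined (among them Tnnt2, Ttn and Ryr2) were detected in every library.

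The proteasome is built from a core particle and a regulatory particle. The core is a barrel of stacked rings, in which the outer alpha rings (Psma genes) form the gate and the inner beta rings (Psmb genes) hold the cutting sites. The regulatory particle caps the barrel, and consists of a base with a ring of ATPases (Psmc genes) that unfold the substrate, further base subunits that bind ubiquitin or its shuttle proteins, and a lid that removes the ubiquitin chain (both Psmd genes). When the proteasome is inhibited, Nrf1 escapes degradation and raises transcription of subunit genes through antioxidant response elements in their promoters, and heart muscle relies on the complex for the turnover of damaged proteins.

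The libraries labelled WT-Sham, KO-Sham, WT-MI and KO-MI held 1406, 3328, 2003 and 1848 nuclei with 4984625, 9106522, 7955986 and 7359887 UMIs. The library labelled KO-Sham stood apart from the other 3, with a median of 2572 UMIs per nucleus against 3553.5 to 3959, and a median of 8.98% of UMIs from the mitochondrial genome against 5.29% to 6.58%. Only 9 barcodes occurred in more than 1 library. Nfe2l1 had 310 UMIs in WT-Sham, 460 in KO-Sham, 377 in WT-MI and 407 in KO-MI. Its level was lower in KO-Sham than in WT-Sham (log2 ratio -0.30, 95% interval -0.51 to -0.09) but higher in KO-MI than in WT-MI (0.22, 0.02 to 0.43), so that this sum was not lower under the KO label in the MI pair. The sum over the whole gene with its introns does not read the deleted stretch alone, and it is no check of the deletion. The study measured Nrf1 by qPCR in other hearts with and without the deletion, at a later age, and reports a difference. The libraries are called by their labels throughout, and every direction given for KO against WT rests on those labels.

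A level below is the number of UMIs of a gene or gene group per 1000000 UMIs of the library (CPM), and a difference is the log2 ratio of 2 levels. The interval after a value is an exact 95% interval that covers counting error only, not the variation between hearts, and with 1 library per group no test was made of the difference between any 2 libraries. A gene entered a comparison when it had 20 or more UMIs over both libraries, and a ratio beyond 1.5-fold, the limit used by the study, was counted as past the threshold. The 4 comparisons use the same 4 libraries in pairs, so they are not independent of each other. Fewer copies per nucleus, fewer nuclei that express a gene and a larger share of other RNA in the library cannot be told apart in such sums.

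Promoters are shown for 4 members that carry the comparisons below: Psmb5 and Psmb6, catalytic subunits of the core that differed most between the Sham libraries among the abundant members, Psmd11, which was lower in KO and higher in MI in each pair, and Psmd14, the highest member for MI over Sham in both genotypes. The RefSeq start lies inside the gene as GENCODE annotates it by 27 bases in Psmb5 and by 232 bases in Psmd1, so that the last 27 bases shown for Psmb5 are part of that gene, and Psmd1 is not shown because its whole run would be. Each run is the 150 bases before the annotated start, 5′ to 3′ on the strand of the gene, from RefSeq on GRCm38.p6, and capitals mark a match to the core of the antioxidant response element, TGACNNNGC.
Psmb5, chr14:54617996-54618145, minus strand: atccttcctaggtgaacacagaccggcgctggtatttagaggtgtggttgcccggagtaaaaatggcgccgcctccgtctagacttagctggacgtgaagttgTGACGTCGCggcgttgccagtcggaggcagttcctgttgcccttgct
Psmb6, chr11:70525207-70525356, plus strand: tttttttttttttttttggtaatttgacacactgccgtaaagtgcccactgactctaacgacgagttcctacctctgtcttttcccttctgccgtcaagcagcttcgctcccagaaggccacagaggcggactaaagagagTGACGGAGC
Psmd11, chr11:80428465-80428614, plus strand: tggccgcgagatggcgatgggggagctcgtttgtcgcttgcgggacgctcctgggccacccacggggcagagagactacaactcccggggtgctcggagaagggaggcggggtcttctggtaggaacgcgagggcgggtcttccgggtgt
Psmd14, chr2:61711544-61711693, plus strand: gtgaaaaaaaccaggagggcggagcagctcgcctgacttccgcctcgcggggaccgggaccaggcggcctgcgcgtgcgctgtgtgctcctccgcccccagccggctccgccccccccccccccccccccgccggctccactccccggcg

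The core motif was searched on both strands in the 300 bases from 250 before to 50 after each start. It was found in 5 of the 32 members with a promoter entry (15.6%) and in 14.0% of the 27025 genes of the table. The 5 were Psmb5 (38 bases before the start), Psmb6 (directly before the start), Psmd9 (22 bases before), and, on the opposite strand, Psmc6 (218) and Psmd12 (238). Between the Sham libraries the log2 ratios of KO over WT for these genes were 0.58, 0.64, -0.18, -0.28 and 0.25, so that genes with the motif were found on both sides of 0. That pair includes KO-Sham, which stood apart in depth and mitochondrial share. Between the MI libraries the ratios of the 5 genes were 0.12, 0.09, 0.01, -0.18 and -0.17 in the same order. Only the counting interval of Psmc6 left out 0 there (-0.33 to -0.03). Psmd1, Psmd11 and Psmd14 had no match in this window, which says nothing of other positions.

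All members together had 9960 UMIs in WT-Sham (1998 CPM), 20681 in KO-Sham (2271 CPM), 17355 in WT-MI (2181 CPM) and 14856 in KO-MI (2019 CPM). The summed level was thus highest in KO-Sham, and WT-Sham and KO-MI had overlapping intervals (1959 to 2038 and 1986 to 2051 CPM). KO over WT it was 0.18 (0.15 to 0.22) between the Sham libraries and -0.11 (-0.14 to -0.08) between the MI libraries. MI over Sham it was 0.13 (0.09 to 0.16) in WT and -0.17 (-0.20 to -0.14) in KO. The median log2 ratio of all genes tested was -0.09, 0.03, -0.07 and 0.04 in the same 4 comparisons.

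The core and the regulatory particle took different places in the order of the libraries. Of the 18 detected core members, 13 had their highest level in KO-Sham (72.2%, against 20.6% of all 15076 genes with 20 or more UMIs), 2 in WT-MI, 2 in WT-Sham and 1 in KO-MI. Of the 17 members of the regulatory particle, 11 had their highest level in WT-MI (64.7%, against 22.4% of all genes), 4 in KO-Sham, 2 in WT-Sham and 0 in KO-MI. These shares are descriptions of 4 libraries and not a test. Sem1, a lid subunit whose symbol falls outside the rule, was not counted in the regulatory particle here or below.

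In the comparison of KO with WT after MI, the regulatory particle was lower and the core was nearly level. The regulatory members summed to -0.23 (-0.27 to -0.18) and 16 of 17 had a ratio below 0, against 44.7% of all 13678 genes tested. The core members summed to -0.01 (-0.06 to 0.03), with 8 above and 10 below 0. By letter, the Psmd genes summed to -0.23 (-0.29 to -0.18), the Psmc genes to -0.19 (-0.27 to -0.10), the Psma genes to -0.09 (-0.15 to -0.02) and the Psmb genes to 0.05 (-0.01 to 0.11). Only Psmd1 was past 1.5-fold lower and no member was past it higher, where 3.68% of all genes were past it lower and 3.94% higher. The pair also differed in RNA of the 5 red blood cell genes (4519 CPM in WT-MI and 2123 in KO-MI) and of the 11 myeloid genes (375 and 213 CPM), whose part in these values was not tested.

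In the comparison of KO with WT after Sham surgery, the core was higher and the regulatory particle was level. The core members summed to 0.33 (0.29 to 0.38) and 16 of 18 had a ratio above 0, against 38.5% of all 13370 genes tested. All genes that span under 5 kb on the genome, 5 core members and 0 regulatory ones among them, had a median of 0.21. The regulatory members summed to -0.01 (-0.07 to 0.04), with 8 above and 9 below 0. Sem1, which is outside this sum, was at 0.49 (0.40 to 0.59). The Psmb genes summed to 0.39 (0.33 to 0.45) and the Psma genes to 0.26 (0.19 to 0.33), and the Psmc and Psmd genes to -0.02 (-0.12 to 0.07) and -0.01 (-0.07 to 0.05). Psmd10 and Psmb6 were past 1.5-fold higher and Psmb9 was past it lower, where 5.74% of all genes were past it higher and 5.61% lower. With TMM scaling or with size factors, 6 members were past it higher and 1 lower in place of 2 and 1, and the share of all genes was not taken there. This pair includes KO-Sham, the library with the fewest UMIs per nucleus and the most mitochondrial RNA. KO-Sham also held more RNA of the 7 endothelial genes than WT-Sham (862 against 564 CPM over all nuclei, 806 against 442 CPM in CM1) and less of the 5 red blood cell genes (2318 against 3296 CPM). The part of depth, of RNA quality or of other cell types in these values was not tested. With each nucleus thinned to 1000 UMIs, the sum of all members was 0.14 in place of 0.18.

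**Figure D1:**
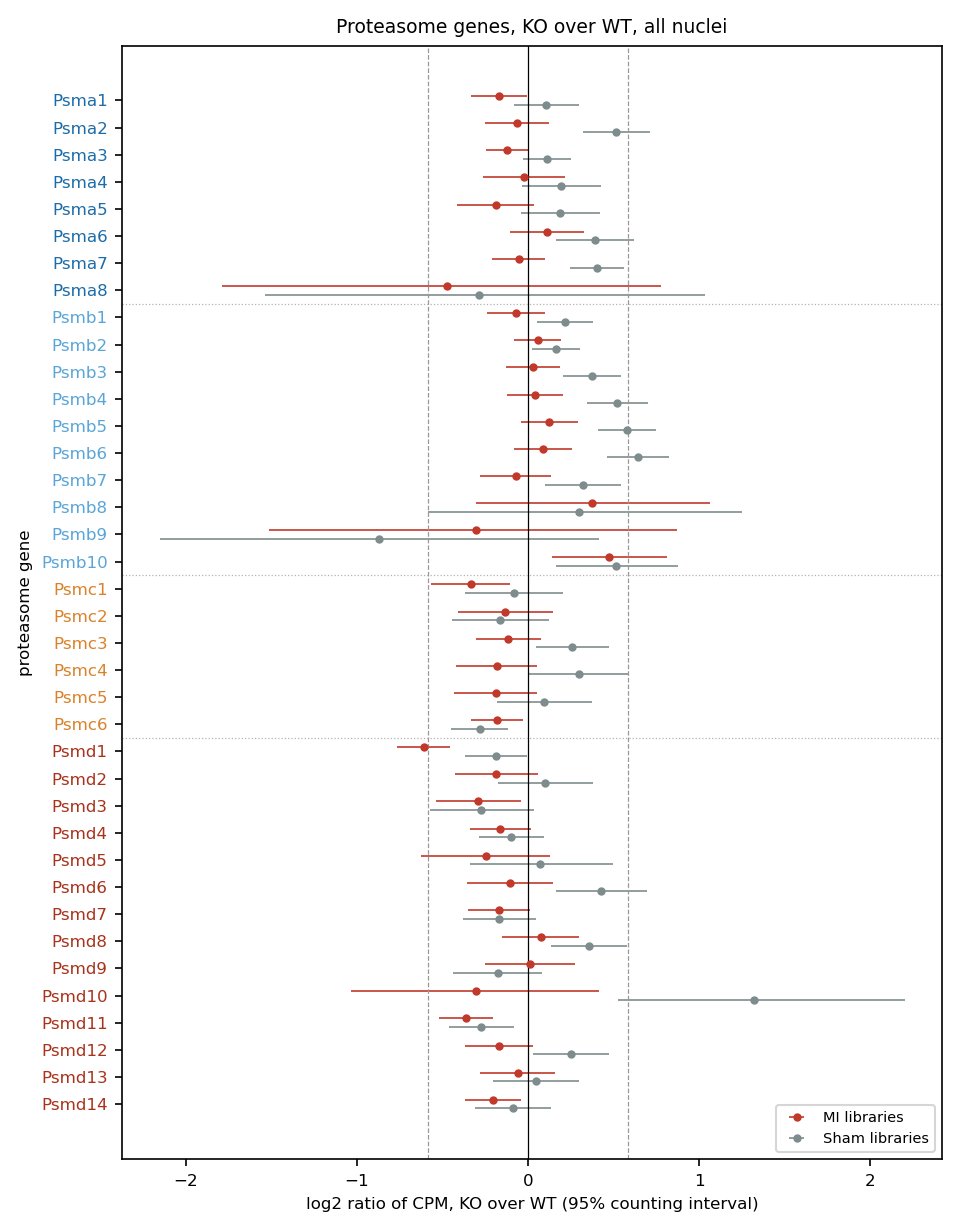
Log2 ratio of KO over WT for the 38 detected proteasome genes over all nuclei (horizontal axis), with 95% counting intervals, in the MI libraries (red) and the Sham libraries (grey). Dashed lines mark 1.5-fold. Most Psma and Psmb genes lie right of 0 in the Sham pair, and nearly all Psmc and Psmd genes lie left of 0 in the MI pair, with Psmd1 the farthest left at -0.61.

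In the comparison of MI with Sham in WT, the regulatory particle was higher and the core was level. The regulatory members summed to 0.26 (0.21 to 0.32) and 14 of 17 were above 0, against 44.1% of all 13415 genes tested. The core members summed to 0.02 (-0.03 to 0.07), with 9 on each side of 0. In the population CM1 alone the core was at 0.10, with a counting interval above 0. The lid summed to 0.30 (0.22 to 0.38), the base subunits without ATPase activity to 0.28 (0.17 to 0.40) and the ATPases to 0.19 (0.10 to 0.29). Psmd14 and Psmd10 were past 1.5-fold higher and no member was past it lower, where 12.5% of all genes were past it higher and 15.9% lower.

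In the comparison of MI with Sham in KO, the core was lower and the regulatory particle was near level. The core members summed to -0.33 (-0.37 to -0.28) and 14 of 18 were below 0, against 46% of all 13806 genes tested. The regulatory members summed to 0.05 (0.00 to 0.10), with 9 above and 8 below 0. Sem1, which is outside this sum, was at -0.66 (-0.75 to -0.58). Psmd14 was past 1.5-fold higher and Psmd10 past it lower, where 14.1% of all genes were past it higher and 12.5% lower. With TMM scaling or with size factors the split was 0 higher and 2 lower, since Psmd14 was then at 0.57, just under the limit, and Psmb5 at -0.59, just past it. The share of all genes was not taken under these settings. In both genotypes the MI library held more RNA of the 5 injury genes examined (6065 and 7094 CPM in WT-MI and KO-MI, 525 and 760 CPM in WT-Sham and KO-Sham) and of the 11 myeloid genes (375 and 213 CPM against 117 and 86.4 CPM), and their part in the proteasome values was not tested.

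**Figure D2:**
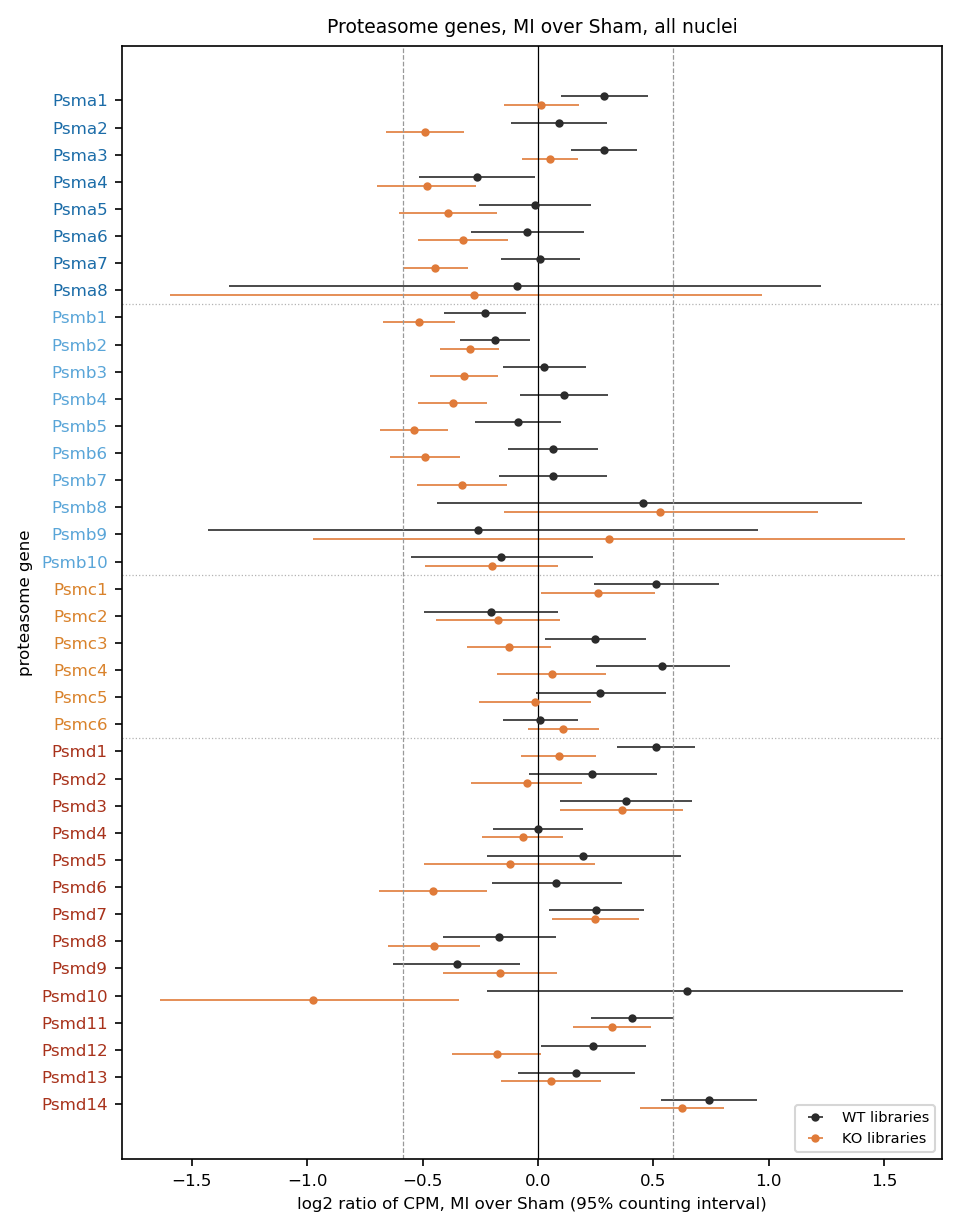
Log2 ratio of MI over Sham for the 38 detected proteasome genes over all nuclei (horizontal axis), with 95% counting intervals, in the WT libraries (black) and the KO libraries (orange). Dashed lines mark 1.5-fold. Psmd14 lies beyond the line on the right in both genotypes, at 0.74 and 0.63, while all 7 constitutive beta subunits lie left of 0 in KO.

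The alpha ring was measured through 7 constitutive genes, Psma1 to Psma7, and the testis form Psma8. All 7 constitutive genes were above 0 for KO over WT after Sham (0.11 to 0.51), and 6 of 7 were below 0 after MI (-0.19 to 0.11 over all 7). Psma1, an alpha subunit named by the study, had 70.2 CPM in WT-Sham, 75.6 in KO-Sham, 85.7 in WT-MI and 76.4 in KO-MI, and Psma5, another, had 46.5, 53.0, 46.1 and 40.5 CPM in the same order. Psma1 was therefore highest in WT-MI and Psma5 in KO-Sham. The Psma1 ratio of KO over WT was -0.17 (-0.33 to -0.00) after MI and 0.11 (-0.08 to 0.30) after Sham. The Psma5 ratio of KO over WT was -0.19 (-0.41 to 0.04) after MI and 0.19 (-0.04 to 0.42) after Sham. Psma4 was among the lowest members for MI over Sham in WT at -0.26 (-0.51 to -0.01), with 46.9 CPM in WT-Sham and 39.1 in WT-MI. Psma8, which replaces Psma7 in the testis, had 10, 15, 15 and 10 UMIs in WT-Sham, KO-Sham, WT-MI and KO-MI, and its ratio of -0.47 after MI had an interval from -1.79 to 0.78.

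The catalytic subunits of the core followed the pattern of KO-Sham above the rest. Psmb5, the chymotrypsin-like site, had 78.8 CPM in WT-Sham, 117 in KO-Sham, 74.3 in WT-MI and 81.0 in KO-MI. Psmb6, the caspase-like site, had 69.2, 108, 72.4 and 76.9 CPM, and Psmb7, the trypsin-like site, had 49.0, 61.1, 51.2 and 48.6 CPM in that order. In each of the 3 genes the value in KO-Sham was the highest, and the other 3 libraries lay close together. For KO over WT after Sham the log2 ratios were 0.58 (0.41 to 0.75) for Psmb5, 0.64 (0.46 to 0.82) for Psmb6 and 0.32 (0.10 to 0.54) for Psmb7. After MI they were 0.12 (-0.04 to 0.29), 0.09 (-0.08 to 0.26) and -0.07 (-0.28 to 0.14), which did not exceed counting error. Psmb3, a beta subunit without a cutting site that the study names, had 82.7, 107, 84.2 and 85.9 CPM in WT-Sham, KO-Sham, WT-MI and KO-MI, with ratios of KO over WT of 0.37 (0.21 to 0.54) after Sham and 0.03 (-0.13 to 0.19) after MI. All 7 constitutive beta genes were above 0 for KO over WT after Sham (0.17 to 0.64) and below 0 for MI over Sham in KO (-0.54 to -0.29), with Psmb5 the lowest.

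The inducible beta forms, which replace the catalytic subunits when interferon is present, were sparse apart from Psmb10. Psmb10 had 93 UMIs in WT-Sham (18.7 CPM), 243 in KO-Sham (26.7 CPM), 133 in WT-MI (16.7 CPM) and 171 in KO-MI (23.2 CPM). Both KO libraries were thus above both WT libraries, and KO over WT the log2 ratio was 0.47 (0.14 to 0.81) after MI, the highest of all members there, and 0.52 (0.17 to 0.88) after Sham. Psmb8 had 16, 36, 35 and 42 UMIs in WT-Sham, KO-Sham, WT-MI and KO-MI, and its ratio was 0.38 (-0.31 to 1.07) after MI and 0.30 (-0.59 to 1.25) after Sham. Psmb9 had 12, 12, 16 and 12 UMIs, and its ratio of -0.87 after Sham, past 1.5-fold lower, had an interval from -2.15 to 0.41. Psmb9 overlaps Tap1 and Psmb8 and Psmb10 each overlap another annotated gene, so reads could be split between them. Psmb11, the thymus form, had 0 UMIs in all 4 libraries, which with a floor of 3 UMIs per library (a one-sided limit, below the upper end of the exact interval used for other levels) allows up to 0.602, 0.329, 0.377 and 0.408 CPM in WT-Sham, KO-Sham, WT-MI and KO-MI.

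The ATPase ring has 6 genes, Psmc1 to Psmc6. All 6 were below 0 for KO over WT after MI (-0.34 to -0.11), and 3 were above and 3 below 0 after Sham. For MI over Sham, 5 of 6 were above 0 in WT and 3 of 6 in KO. The largest ratio was that of Psmc4 in WT, with 28.9 CPM in WT-Sham and 42.0 in WT-MI and a log2 ratio of 0.54 (0.25 to 0.83), which was within 1.5-fold.

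In the base, Psmd1 was the member that differed most between the MI libraries. Psmd1 encodes the largest scaffold subunit of the base, lies at chr1:86064387-86139151 on the plus strand (mm10), and is named by the study from these same libraries, so its direction in the MI pair is not independent evidence. Apart from these libraries, the study reports Psmd1, Psma1 and Psmb3 as lower by qPCR in whole hearts with the deletion at a later age. The legend of that qPCR also lists a difference for Psma5. The study further reports lower chymotrypsin-like proteasome activity in hearts with the deletion at the age of these libraries, a measure of activity and not of RNA. Psmd1 had 410 UMIs in WT-Sham (82.3 CPM), 657 in KO-Sham (72.1 CPM), 932 in WT-MI (117 CPM) and 565 in KO-MI (76.8 CPM). The value in WT-MI stood above the other 3, which lay within 72.1 to 82.3 CPM. KO over WT, the log2 ratio was -0.61 (-0.76 to -0.46) after MI and -0.19 (-0.37 to -0.01) after Sham, and that of MI over Sham was 0.51 (0.34 to 0.68) in WT and 0.09 (-0.08 to 0.25) in KO. Psmd1 overlaps 4 other annotated genes, among them Htr2b. Without Psmd1, the log2 ratio of regulatory over core UMIs still differed by -0.17 between KO-MI and WT-MI, against -0.21 with it.

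The other base subunits without ATPase activity differed less. Psmd2, which docks ubiquitin shuttle proteins, had 33.3 CPM in WT-Sham, 35.7 in KO-Sham, 39.2 in WT-MI and 34.5 in KO-MI, with a ratio of KO over WT after MI of -0.18 (-0.43 to 0.06). Psmd4, a ubiquitin receptor, had 71.8, 67.1, 71.8 and 64.1 CPM, with a ratio of -0.16 (-0.34 to 0.02). Neither difference exceeded counting error.

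In the lid, Psmd14 was higher after MI in both genotypes. Psmd14 is the enzyme that cuts the ubiquitin chain from the substrate, and lies at chr2:61711694-61800376 on the plus strand (mm10), where it overlaps 2 small annotated genes. It had 262 UMIs in WT-Sham (52.6 CPM), 450 in KO-Sham (49.4 CPM), 699 in WT-MI (87.9 CPM) and 561 in KO-MI (76.2 CPM). Both MI libraries were above both Sham libraries, with a log2 ratio for MI over Sham of 0.74 (0.53 to 0.95) in WT and 0.63 (0.44 to 0.81) in KO. KO over WT it was -0.20 (-0.37 to -0.04) after MI and -0.09 (-0.31 to 0.14) after Sham. Psmd11, a lid subunit that bridges to the core, had the same order, with 76.2 CPM in WT-Sham, 63.0 in KO-Sham, 101 in WT-MI and 78.8 in KO-MI. The Psmd11 ratio of MI over Sham was 0.41 (0.23 to 0.59) in WT and 0.32 (0.15 to 0.49) in KO, and that of KO over WT was -0.36 (-0.52 to -0.20) after MI and -0.27 (-0.46 to -0.08) after Sham. Not all lid genes had this order: Psmd6 and Psmd8 were both at -0.45 for MI over Sham in KO, with intervals of -0.69 to -0.22 and -0.65 to -0.25.

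Psmd5, Psmd9 and Psmd10 encode chaperones that assemble the base and leave the finished complex, and they were not counted with the regulatory particle. Psmd10 had 16 UMIs in WT-Sham, 73 in KO-Sham, 40 in WT-MI and 30 in KO-MI (3.21, 8.02, 5.03 and 4.08 CPM). KO-Sham was thus the highest and WT-Sham the lowest, and the ratio of KO over WT was 1.32 (0.53 to 2.20) after Sham and -0.30 (-1.04 to 0.42) after MI. MI over Sham, Psmd10 was at 0.65 (-0.22 to 1.58) in WT, which is past 1.5-fold with an interval that holds 0 and was -0.19 after thinning, and at -0.98 (-1.64 to -0.34) in KO. Psmd9 was the lowest member for MI over Sham in WT at -0.35 (-0.63 to -0.08), with 40.1 CPM in WT-Sham, 35.5 in KO-Sham, 31.4 in WT-MI and 31.7 in KO-MI. Psmd5 had 15.0, 15.8, 17.2 and 14.5 CPM and no ratio beyond counting error.

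The balance between the particles was then taken within each library, where the scaling of the library cancels. Sem1 was left out of it, with 1283, 3294, 1600 and 1684 UMIs in WT-Sham, KO-Sham, WT-MI and KO-MI. The regulatory members counted had 4283, 7744, 8204 and 6491 UMIs in that order. Relative to the core, Sem1 was higher in KO and lower in MI, opposite to the regulatory sum. The size of the differences below therefore depends on leaving it out. The log2 ratio of regulatory over core UMIs was -0.33 (-0.39 to -0.27) in WT-Sham, -0.68 (-0.72 to -0.64) in KO-Sham, -0.09 (-0.13 to -0.05) in WT-MI and -0.30 (-0.35 to -0.25) in KO-MI. KO was therefore 0.21 below WT after MI and 0.35 below it after Sham, and MI was 0.24 above Sham in WT and 0.38 above it in KO. The value was lower in KO than in WT and higher in MI than in Sham in each of the 4 deposited cardiomyocyte populations (CM1, CM2, CM4 and CM5). After thinning each nucleus to 1000 UMIs this order held over all nuclei and in CM1 and CM5, but not in CM2 and CM4. In CM4 the thinned values were -0.45 in KO-MI against -0.52 in WT-MI and -0.72 in KO-Sham against -0.76 in WT-Sham. In CM2 the thinned values were -1.30 in WT-Sham, -0.38 in KO-Sham, -0.05 in WT-MI and -0.60 in KO-MI. In the nuclei with the least RNA of other cell types, CM2 was at -0.44 in KO-MI and -0.42 in KO-Sham. Before thinning, the intervals of the 2 libraries overlapped in all 4 comparisons in CM2, in all 4 in CM4 and in 1 of 4 in CM5 (MI over Sham in WT), and in 0 of 4 in CM1 and over all nuclei. The smallest of the differences, 0.05 for MI over Sham in KO in CM2, had overlapping intervals of -0.66 to -0.14 and -0.65 to -0.25. KO-Sham, the library with the lowest ratio, was also the one with the highest mitochondrial share. The median shares were 6.58% in WT-Sham, 8.98% in KO-Sham, 5.37% in WT-MI and 5.29% in KO-MI, and their part in the ratio was not tested.

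**Figure D3:**
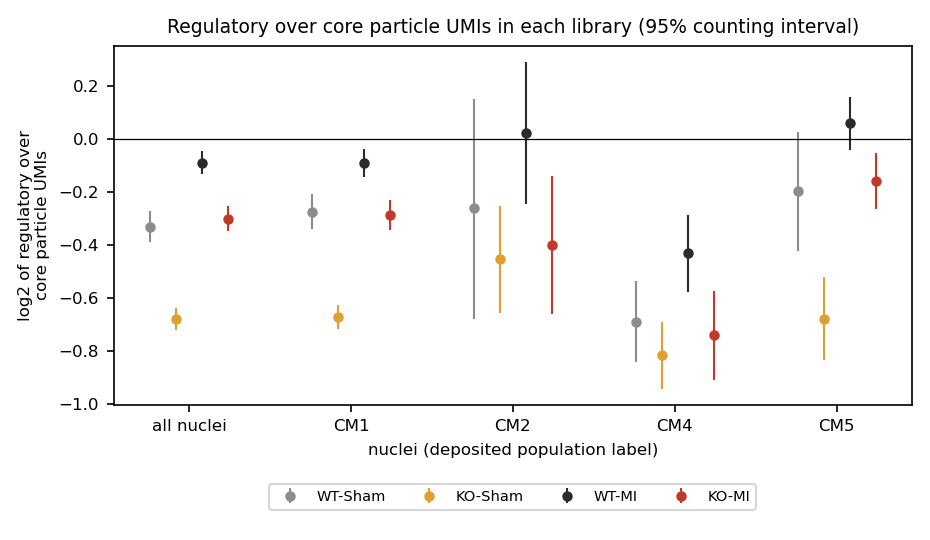
Log2 ratio of regulatory over core particle UMIs (vertical axis) in each library, over all nuclei and in each deposited population, with 95% counting intervals. WT-MI is the highest and KO-Sham the lowest library over all nuclei (-0.09 and -0.68) and in each population.

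The populations are labels that the authors made from gene expression, so their differences in proteasome level are given as a description. Per the methods, nuclei were clustered on variable genes, and population names were transferred from an earlier dataset. The study merged CM1 with CM3, so the CM1 label may hold both. CM4, the population that the study follows in heart regeneration, had 192, 351, 192 and 118 nuclei in WT-Sham, KO-Sham, WT-MI and KO-MI. The summed level of all members was 3806 CPM in CM4 against 1824 in CM1 in WT-Sham, 3177 against 2187 in KO-Sham, 3819 against 2068 in WT-MI and 3585 against 1894 in KO-MI. CM4 was above CM1 in all 4 libraries, by 1.06 (0.98 to 1.14), 0.54 (0.48 to 0.60), 0.89 (0.81 to 0.96) and 0.92 (0.83 to 1.01) on the log2 scale, and KO-Sham had the smallest gap. The level is a share of the RNA counted and not an amount per nucleus, and CM4 nuclei had a median of 1715.5, 1859, 1852.5 and 2394 UMIs in WT-Sham, KO-Sham, WT-MI and KO-MI, against 3749, 2632, 4042 and 4043.5 in CM1. The median number of proteasome UMIs per nucleus was 6, 5, 7 and 9 in CM4 and 6, 6, 8 and 7 in CM1, and was thus higher in CM4 in KO-MI only. The gap was 1.26, 0.59, 1.06 and 1.13 for the core and smaller for the regulatory particle, at 0.85, 0.45, 0.72 and 0.68. All core members that entered (15 or 16 in each library) were above CM1, against 40.1% to 48.4% of all genes. CM2 and CM5 lay within -0.15 to 0.19 of CM1.

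The gap between CM4 and CM1 was not even over the members. In WT-Sham, KO-Sham, WT-MI and KO-MI it was 1.86, 0.69, 1.41 and 1.62 for Psmb5 and 1.67, 0.71, 1.31 and 1.14 for Psma7, which had the most UMIs of the Psmb and the Psma genes in CM4. It was 1.44, 0.57, 1.39 and 1.16 for Psmc3, an ATPase, and 1.61, 1.06, 1.23 and 1.13 for Psmd8, a lid subunit, the most abundant of the other 2 letters. For Psmd1 it was 0.09, 0.13, 0.04 and -0.43, with intervals that all held 0. CM4 also had a higher median mitochondrial share (9.47% to 14.6% against 5.05% to 8.78% in CM1) and more RNA of the 7 endothelial genes (1526 to 1598 CPM against 442 to 806 CPM) and of the 7 fibroblast genes (1966 to 2460 CPM against 895 to 1047 CPM). The 11 myeloid genes were at 120 to 686 CPM in CM4 and 82.6 to 364 CPM in CM1, and the 5 injury genes at 943 to 13687 CPM and 422 to 5010 CPM, with CM4 above CM1 in every library. The 5 red blood cell genes were at 3538 to 12805 CPM in CM4 and 1891 to 3829 CPM in CM1, while the 8 cardiomyocyte genes were at 33146 to 39466 CPM in CM4 and 34641 to 37276 CPM in CM1. In the nuclei with the least RNA of other cell types, the gap of all members between CM4 and CM1 was 1.21, 0.59, 0.90 and 1.09 in WT-Sham, KO-Sham, WT-MI and KO-MI, and after thinning it was 0.93, 0.44, 0.87 and 0.89. The nuclei with the least such RNA were chosen within each library and population, so CM4 was not matched to CM1 in it. The part of this other RNA in the gap was not tested.

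Within CM4 the comparisons differed from those over all nuclei. KO over WT, all members summed to -0.09 (-0.20 to 0.02) after MI and -0.26 (-0.35 to -0.17) after Sham. MI over Sham, they summed to 0.00 (-0.10 to 0.11) in WT, where the median of all genes was 0.16, and to 0.17 (0.07 to 0.27) in KO. After Sham, 29 of 33 members that entered were below 0 for KO over WT, against 45.9% of all genes, and 5 were past 1.5-fold lower and 1 past it higher, against 10.8% and 19.9%. After MI, 19 of 33 were below 0, against 54.3% of all genes, and 5 were past 1.5-fold lower and 1 past it higher, against 19.3% and 12.3%. The regulatory particle summed to -0.27 (-0.45 to -0.10) after MI and -0.36 (-0.51 to -0.20) after Sham, and the core to 0.04 (-0.10 to 0.18) and -0.23 (-0.35 to -0.11). Psmd1 had 34, 55, 49 and 19 UMIs in CM4 of WT-Sham, KO-Sham, WT-MI and KO-MI (86.0, 75.3, 116 and 55.3 CPM), with a ratio of KO over WT of -1.07 (-1.92 to -0.28) after MI and -0.19 (-0.83 to 0.47) after Sham. Psmd14 had 78.4, 49.3, 102 and 93.1 CPM in CM4, and its ratio of MI over Sham was 0.38 (-0.32 to 1.10) in WT and 0.92 (0.18 to 1.65) in KO.

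**Figure D4:**
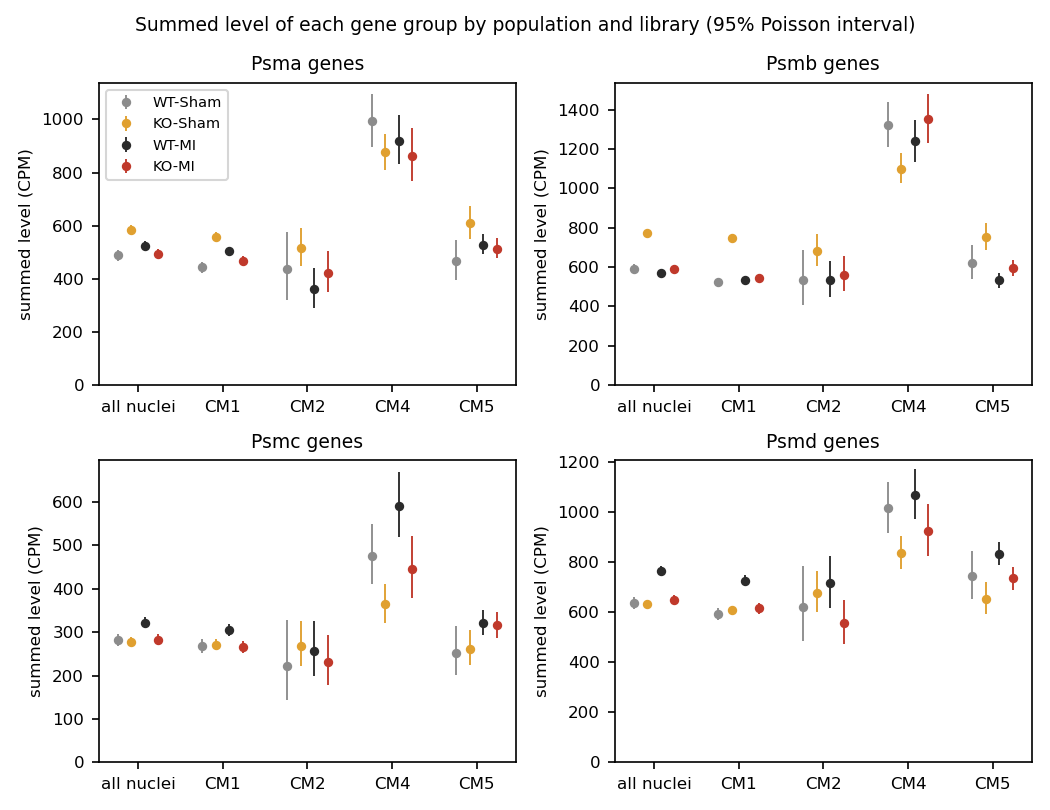
Summed level (CPM, vertical axes from 0) of the Psma, Psmb, Psmc and Psmd genes over all nuclei and in each deposited population, for the 4 libraries, with 95% Poisson intervals. All 4 gene groups were higher in CM4 than in the other populations in every library, and KO-Sham was highest for Psma and Psmb over all nuclei.

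In CM1, which held 1098, 2619, 1415 and 1308 nuclei of the 4 libraries, the KO over WT ratios named here had the sign of those over all nuclei. The core differed for MI over Sham in WT. It was at 0.10 in CM1, with a counting interval above 0, and was level over all nuclei. Psmb5 had 63.6 CPM in WT-Sham, 113 in KO-Sham, 71.4 in WT-MI and 74.0 in KO-MI, with a ratio of KO over WT of 0.83 (0.63 to 1.04) after Sham. Psmd1 had 80.7, 68.7, 113 and 74.4 CPM, with a ratio of KO over WT of -0.60 (-0.78 to -0.42) after MI. For KO over WT after Sham, 7 of 38 members in CM1 were past 1.5-fold higher and 2 past it lower, against 7.85% and 6.64% of all genes. Over all nuclei 2 were past it higher and 1 lower.

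CM5, which the study links to injury, held 89, 234, 339 and 355 nuclei of WT-Sham, KO-Sham, WT-MI and KO-MI. Its core members summed to 0.32 (0.14 to 0.51) for KO over WT after Sham, with 14 of 15 above 0 against 44.2% of all genes. For MI over Sham in KO they summed to -0.30 (-0.42 to -0.17), and all 15 that entered were below 0 against 44.7% of all genes. The regulatory particle in CM5 was at 0.22 (0.05 to 0.40) for MI over Sham in WT and 0.22 (0.08 to 0.37) in KO. Psmd14 had 70.7, 44.1, 130 and 89.7 CPM there, with a ratio of MI over Sham of 0.88 (0.25 to 1.57) in WT and 1.03 (0.43 to 1.67) in KO. CM2 held only 27 to 124 nuclei a library, with 8 to 42 UMIs of Psmb5 and 6 to 34 of Psmd1.

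The members also differed in gene length on the genome, which bears on counts that include introns. The span from the first to the last annotated base was 2.49 to 61.0 kb in the core (median 10.1) and 6.51 to 88.7 kb in the regulatory particle (median 13.3). Over the 38 detected members, the Spearman correlation of the ratio with the span was -0.38 for KO over WT after MI and -0.45 after Sham, where over all genes it was -0.19 and -0.29 (13516 and 13207 genes). For MI over Sham it was 0.06 in WT and 0.17 in KO, where over all genes it was 0.09 and 0.19. The parts differed for MI over Sham, with 0.27 in WT and 0.42 in KO in the regulatory particle and -0.09 and -0.07 in the core. For KO over WT after MI and after Sham, the correlation was -0.43 and -0.55 in the regulatory particle and -0.52 and -0.43 in the core. Genes share libraries and depth, so these are descriptions. Genes under 5 kb held 5 core members and 0 regulatory ones. There the median of KO over WT after Sham was 0.52 in the core, against 0.21 in all genes of that span. After MI these medians were 0.12 and 0.15, and for MI over Sham in KO -0.37 and -0.22. In all genes of 50 kb or over, the median was -0.19 for KO over WT after Sham and 0.13 for MI over Sham in KO. Within genes of 5 to 10 kb, the median ratio of KO over WT after MI was -0.05 in the core (3 genes) and -0.17 in the regulatory particle (6 genes), against 0.11 in all genes of that span. After Sham the medians were 0.19 and 0.20, close together, against 0.06 in all genes of that span. In genes of 10 to 20 kb, the medians after MI were -0.07 (2 genes) and -0.18 (7 genes), and after Sham 0.24 and -0.08. All genes of that span were at 0.08 after MI and -0.05 after Sham. The part of gene span in the values was not tested further.

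**Figure D5:**
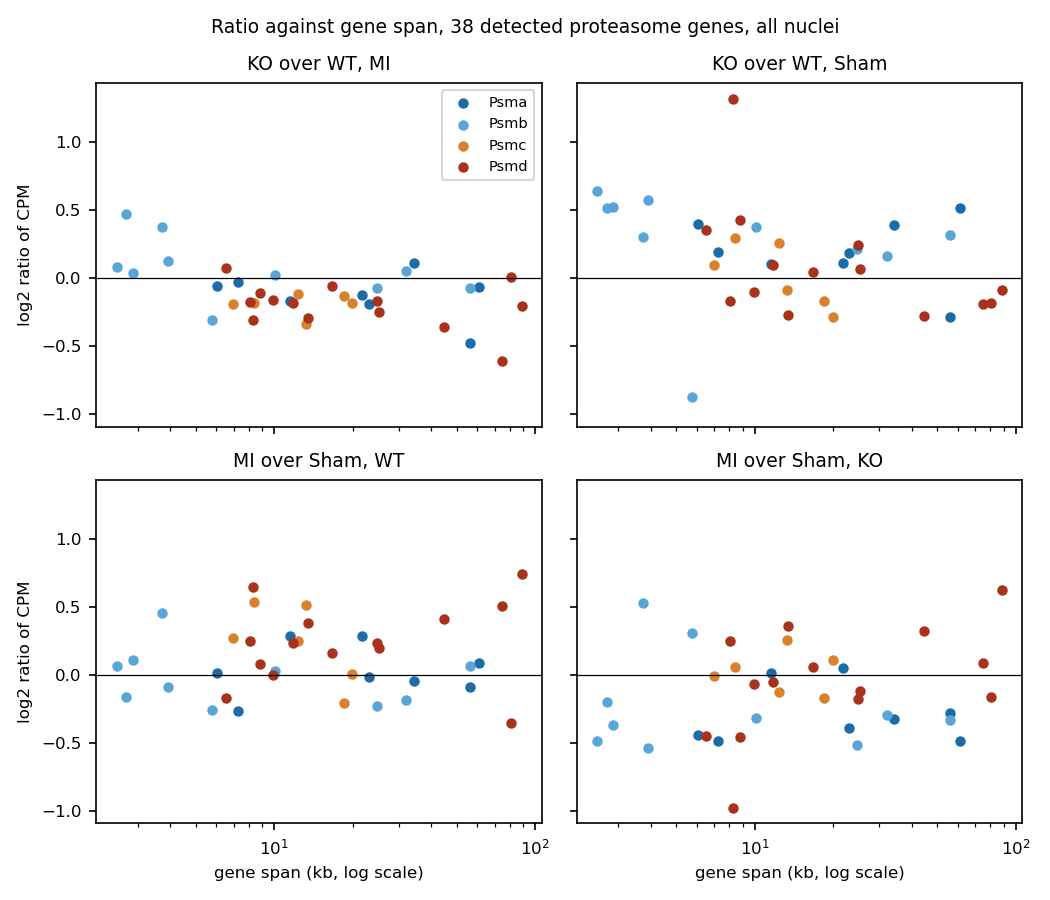
Log2 ratio of each of the 38 detected members (vertical axes) against the span of the gene in kb (log scale), in the 4 comparisons over all nuclei. Psmd10 lies highest for KO over WT after Sham (1.32), followed by Psmb6 (0.64) and Psmb5 (0.58), and the long Psmd1 and Psmd14 genes lie at the low and the high end for KO over WT after MI (-0.61) and MI over Sham in WT (0.74).

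Other genes of the pathway were counted from lists of 26 genes found in the matrix. Of 5 genes whose products assemble the core (Psmg1 to Psmg4 and Pomp), 5 were above 0 for KO over WT after Sham, against 38.5% of all genes, and 4 after MI, against 55.3%. For MI over Sham in KO, 5 were below 0, against 46% of all genes. Pomp, which matures the beta ring, had 60.0 CPM in WT-Sham, 78.7 in KO-Sham, 55.1 in WT-MI and 57.9 in KO-MI. Of the 5 activators and inhibitor genes, 3 were above 0 for KO over WT in each pair, against 55.3% of all genes after MI and 38.5% after Sham. For MI over Sham, 1 was above 0 in WT, against 44.1% of all genes, and 2 were below 0 in KO, against 46%. The medians were -0.27 and 0.07. Psme4, the most abundant of these genes, was at -0.32 (-0.43 to -0.22) for KO over WT after MI and -0.42 (-0.53 to -0.31) after Sham. Psme3, which forms another cap, was at 0.42 (-0.11 to 0.98) for MI over Sham in WT. Psme1, a subunit of the cap that opens the core without ATP, had 57.8, 88.2, 39.3 and 40.5 CPM in WT-Sham, KO-Sham, WT-MI and KO-MI, with a ratio of MI over Sham of -0.55 (-0.79 to -0.32) in WT and -1.12 (-1.32 to -0.93) in KO. Of the 10 associated subunits and receptors, 7 were below 0 for KO over WT after MI and 7 after Sham, against 44.7% and 61.5% of all genes, with medians of -0.05 and -0.05. Sem1, in this list, had 1283 UMIs in WT-Sham, 3294 in KO-Sham, 1600 in WT-MI and 1684 in KO-MI. Its ratio of KO over WT was 0.19 (0.09 to 0.29) after MI and 0.49 after Sham. Its ratio of MI over Sham was -0.36 (-0.46 to -0.25) in WT and -0.66 in KO. Regulatory sums with Sem1 added were not taken. The 6 genes of Nrf1 and its processing had medians of -0.06 after MI, with 3 on each side of 0, and -0.21 after Sham, with 6 below 0 against 61.5% of all genes.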

How the data were processed

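Per the methods of the study, nuclei were sequenced from 10x Genomics 3′ libraries (the labels and the methods name different kit versions), and reads were aligned and counted by the authors with Cell Ranger (version not given in the sources used here) on an mm10/GRCm38 pre-mRNA reference, so introns were counted. Doublets called by Scrublet were removed by the authors, nuclei with 200 to 2500 detected genes were kept, and clusters other than cardiomyocytes were dropped. The submitters' processing notes name Seurat 3. The deposited matrix holds raw UMI counts per gene and nucleus (22574 genes, 8585 nuclei), and the deposited table of nuclei gives the library, the population, the UMI count and the percent of mitochondrial UMIs. Another 11 columns of that table were not used here. Groups were taken from the sample titles.

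UMIs were summed per library, or per population of a library, and expressed per 1000000 UMIs (Python 3.11.15, pandas 2.3.3, scipy 1.17.1). Levels carry exact Poisson intervals, and log2 ratios conditional binomial intervals, at 95%. The interval script was checked on simulated data. With 1 library per group, no count test was made. TMM factors came from edgeR 4.0.16 in R 4.3.3. Positions are from GENCODE M21, in which 97.9% of symbols were found, and promoters from RefSeq. Genes named are those past 1.5-fold, the 2 highest and 2 lowest members of each comparison, the catalytic, inducible and tissue forms, the chaperones, members named by the study, selected base and lid subunits, and the member of each letter with the most UMIs in CM4. Psmc4, Psmd6, Psmd8 (over all nuclei), Pomp, Psme1, Psme3, Psme4 and Sem1 were chosen after their values were seen. Another list of pathway genes is not reported here. The members and lists were chosen with earlier results of these data known. The ratio of regulatory to core UMIs, the span bins and the promoter motif were added after values were seen. Alternatives were TMM and median-of-ratios scaling, UMIs outside the mitochondrial genome, thinning to 1000 UMIs, equal weights of nuclei, the nuclei with the least RNA of other cell types, filters of 50 UMIs or none, and sums without Psmd1 or without the 19 members that overlap another gene. For the choice by other cell types, nuclei were ranked by their share of endothelial, fibroblast, myeloid and red blood cell genes. The ranking was made within each library and population, and nuclei up to the median were kept.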

Additional observations from a re-analysis of the deposited data

Results flagged for a closer look

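Several sums lay on opposite sides of 0 in the 2 arms of the same contrast, each with a counting interval that left out 0. Each arm has 1 library a side, so the difference between the arms was not tested, and KO-Sham, which stood apart in depth and mitochondrial share, enters every one of them. All members, KO over WT, were at -0.11 after MI and 0.18 after Sham over all nuclei, and at -0.13 and 0.26 in CM1. The Psma genes were at -0.088 and 0.26 over all nuclei and at -0.10 and 0.34 in CM1. For MI over Sham, all members were at 0.13 in WT and -0.17 in KO over all nuclei and at 0.18 and -0.21 in CM1. The Psma genes were at 0.11 and -0.24 over all nuclei and at 0.18 and -0.25 in CM1, and the core particle in CM1 was at 0.10 and -0.37. The values for the 2 contrasts come from the same 4 libraries and are not separate findings.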

How the results depend on the processing

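No paired analysis was possible because each group has 1 library and the result comes from no test, and for the same reason no replicate could be left out. Over all nuclei, the sum of all members kept its sign under every alternative run. KO over WT after MI (-0.11) it was -0.15 with size factors, -0.15 after thinning and -0.14 in the nuclei with the least RNA of other cell types. KO over WT after Sham (0.18) it was 0.29 with TMM, 0.27 with size factors, 0.13 with equal weights and 0.14 after thinning. MI over Sham in WT (0.13) it was 0.20 with TMM and 0.20 with size factors, and 0.077 without overlapping members. MI over Sham in KO (-0.17) it was -0.22 with TMM, with size factors and without mitochondrial UMIs. In CM4, MI over Sham in WT was 0.00, and -0.16 with TMM and -0.15 with size factors, near the value relative to the median of all genes (-0.15). TMM moved the median of all genes between the Sham libraries from -0.09 to 0.01. The sum in CM4 for KO over WT after MI ranged from -0.15 to 0.02 over the alternatives. Members past 1.5-fold after MI, KO over WT, were 1, and 3 with equal weights, 2 in these nuclei and 4 after thinning. After Sham they were 3, and 7 with TMM or size factors. For MI over Sham in WT they were 2, and 4 with TMM, 5 in these nuclei and 7 after thinning, and in KO 2, and 5 in these nuclei and 4 after thinning. The share of all genes past 1.5-fold was taken in the main setting only. The counts under the alternatives therefore show nothing particular to the members. Reversed in sign were the Psmd sum for KO over WT after MI in CM4 (0.046 after thinning), Psmd10 for MI over Sham in WT (-0.19 after thinning), the core sum for KO over WT after Sham in CM2 (-0.039 after thinning) and the regulatory sum for MI over Sham in KO (-0.00163 with size factors). The cause of these shifts was not tested. Thinning dropped 6 WT-Sham nuclei and 1 WT-MI nucleus. Depth limits Psma8, Psmb8, Psmb9 and Psmd10, whose intervals are wide, and all members in CM2.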
